A study of Mus musculus with 11 samples.

Results

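Interferon-stimulated genes are the transcripts that cells switch on when an interferon binds its receptor. A set of 45 such genes was followed through RNA sequencing of mouse germinal center B cells, out of 48593 genes in the deposited table. The members were taken by gene symbol, and a row was found for all 45. They were divided by role into 18 antiviral effectors, 6 nucleic acid sensors and PYHIN genes, 9 interferon-gamma GTPases, 7 enzymes of ubiquitin, ISG15 and ADP-ribose, and 5 other interferon-induced genes. A mean of at least 10 normalised read counts over the libraries was reached by 44 of the 45, and these were tested. Ifi44 was not tested, with its highest value at 3.93.

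All animals carried Cg1cre/+, a Cre recombinase expressed from the Cg1 locus that acts in germinal center B cells, so the WT animals had the Cre as well. The 5 WT libraries came from Crebbp+/+;Ep300+/+;Cg1cre/+ mice, the 3 CBP-KO libraries from Crebbp fl/fl;Ep300+/+;Cg1cre/+ mice and the 3 p300-KO libraries from Crebbp+/+;Ep300 fl/fl;Cg1cre/+ mice. Each mouse had been given sheep red blood cells into the peritoneum, and B220+/PNA+/CD95+ spleen cells were taken by sorting on day 12. The WT mice were littermates of Crebbp crosses by their labels, and none was labelled as a littermate of the p300-KO mice, so a difference of cross cannot be told apart from the loss of Ep300. The labels used here give no age, sex, litter or batch. The libraries are named by genotype and mouse number, and values are listed in the order WT_4, WT_7, WT_41, WT_288, then WT_46, then CBP-KO_1, CBP-KO_53 and CBP-KO_55, then p300-KO_18, p300-KO_287 and p300-KO_289.

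Type I and type III interferons act through the kinases JAK1 and TYK2 and a transcription factor complex with STAT2 and IRF9, which binds an interferon-stimulated response element (ISRE) in the promoters of antiviral genes. Interferon-gamma acts through JAK1 and JAK2 and factors that bind a gamma-activated site (GAS) and induce the transcription factor IRF1, which in turn binds ISRE-like sequences. The antiviral effectors attack viral RNA, proteins or particles inside the cell, the sensors detect foreign or misplaced nucleic acid, and the immunity-related and guanylate-binding GTPases coat and break the vacuoles of intracellular microbes. CREBBP (CBP) and EP300 (p300) are related lysine acetyltransferases that serve as coactivators for many transcription factors, STAT and IRF proteins among them.

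Promoters of 6 members are shown because these genes carry the contrast between roles described below: Irgm1, Irgm2 and Gbp3 are interferon-gamma GTPases, Ifi211 is a PYHIN gene, and Ifit1 and Isg15 are antiviral effectors. Each is the 250 bases before the RefSeq start on the gene's strand in GRCm38.p6, 5′ to 3′, with matches to the ISRE core GAAANNGAAA or the GAS letters TTCNNNGAA, searched on both strands, in capitals. Where 2 matches overlap, the capitals run on.

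Irgm1, chr11:48871421-48871670, minus strand: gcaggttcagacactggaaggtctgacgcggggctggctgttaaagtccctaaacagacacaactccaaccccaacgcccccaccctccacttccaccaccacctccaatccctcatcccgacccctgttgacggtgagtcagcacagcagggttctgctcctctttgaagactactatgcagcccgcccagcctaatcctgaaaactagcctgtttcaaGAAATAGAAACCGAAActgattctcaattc

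Irgm2, chr11:58214727-58214976, plus strand: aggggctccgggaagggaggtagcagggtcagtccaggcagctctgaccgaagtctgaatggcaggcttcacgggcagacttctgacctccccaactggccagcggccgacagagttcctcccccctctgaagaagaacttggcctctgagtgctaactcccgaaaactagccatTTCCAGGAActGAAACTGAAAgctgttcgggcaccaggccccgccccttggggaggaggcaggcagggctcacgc

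Gbp3, chr3:142559794-142560043, plus strand: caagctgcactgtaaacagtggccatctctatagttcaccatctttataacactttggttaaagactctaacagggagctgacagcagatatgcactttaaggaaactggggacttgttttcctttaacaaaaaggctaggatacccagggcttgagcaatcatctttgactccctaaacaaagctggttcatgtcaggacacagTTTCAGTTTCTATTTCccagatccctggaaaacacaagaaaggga

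Ifi211, chr1:173913047-173913296, minus strand: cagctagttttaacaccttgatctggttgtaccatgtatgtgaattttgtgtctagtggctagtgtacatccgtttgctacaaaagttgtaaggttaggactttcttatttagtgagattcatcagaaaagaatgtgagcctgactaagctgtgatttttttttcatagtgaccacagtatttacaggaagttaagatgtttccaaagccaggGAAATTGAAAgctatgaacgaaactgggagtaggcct

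Ifit1, chr19:34640639-34640888, plus strand: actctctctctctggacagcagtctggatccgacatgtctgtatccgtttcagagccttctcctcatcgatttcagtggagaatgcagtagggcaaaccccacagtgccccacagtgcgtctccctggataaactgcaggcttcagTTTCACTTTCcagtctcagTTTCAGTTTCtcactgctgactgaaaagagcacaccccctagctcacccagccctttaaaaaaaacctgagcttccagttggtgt

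Isg15, chr4:156200819-156201068, minus strand: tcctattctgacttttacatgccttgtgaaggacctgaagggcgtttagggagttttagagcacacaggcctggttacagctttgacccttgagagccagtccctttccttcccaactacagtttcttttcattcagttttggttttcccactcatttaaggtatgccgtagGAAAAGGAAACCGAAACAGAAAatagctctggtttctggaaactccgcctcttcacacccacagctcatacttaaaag

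The ISRE core, or its reverse complement TTTCNNTTTC, was found in the RefSeq window of 250 bases before to 50 after the start in 18 of the 33 members with an entry, against 3.49% of 27025 genes. By role the core was in 6 of 7 GTPases, 3 of 4 sensors, 8 of 15 antiviral effectors, 1 of 4 enzymes and 0 of 3 other interferon-induced genes. The GAS letters were in 10 of the 33 members (30.3%) and in 8.47% of all genes. They were in 3 of 7 GTPases, 0 of 4 sensors, 6 of 15 antiviral effectors, 0 of 4 enzymes and 1 of 3 other interferon-induced genes. In Irgm2 the GAS letters stood next to the ISRE core, and in Isg15 3 matches overlapped in 1 run. A match is a description of the letters and not a measured binding site.

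Depth ranged from 53550726 reads in WT_7 to 132861266 in WT_288. Germinal center B cell markers were high in every library, with a summed level over 14 markers from 645576 to 823018. Ep300 was 14829, 14796 and 13773 in p300-KO against 19310.3 to 22498 in WT (limma, adjusted p = 0.00015). Crebbp was 8595, 8606 and 7541 in CBP-KO against 7984 to 9584 in WT, with overlap. The labels do not say which exons were deleted, so the count over the whole Crebbp gene does not check that label. The library p300-KO_18 held both Xist (98751) and Y-linked transcripts (9852 summed over 4 genes), while each of the other 10 held one or the other. WT_46 stood apart from the other WT libraries in the interferon-gamma GTPases and in markers of macrophages, and results against WT are therefore given with and without it. The mice bear separate numbers, and p-values measure the spread between these mice only. In RNA from bulk cells, fewer cells of a type and less RNA per cell cannot be told apart.

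Levels of the members spanned from near 0 to among the abundant transcripts of these cells. Per kilobase of exon, the highest mean over the 11 libraries was that of Samhd1, an enzyme that degrades deoxynucleotides (5754 normalised counts per kilobase), followed by Samd9l (1607) and Trim25 (1606). Ifi35 (1586) and Adar (1372), the editor of double-stranded RNA, came next. Classical virus-induced genes were low, with Ifit1 at 18.1, Mx1 at 24.3, Mx2 at 10.4 and Rsad2 at 5.26 per kilobase. Mx2 is annotated as a polymorphic pseudogene. Among the GTPases, Ifi47 (820.4), Igtp (514) and Gbp3 (490.1) were the highest per kilobase, while Iigp1 (12.0) was the lowest, next to Gbp7.

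**Figure D1:**
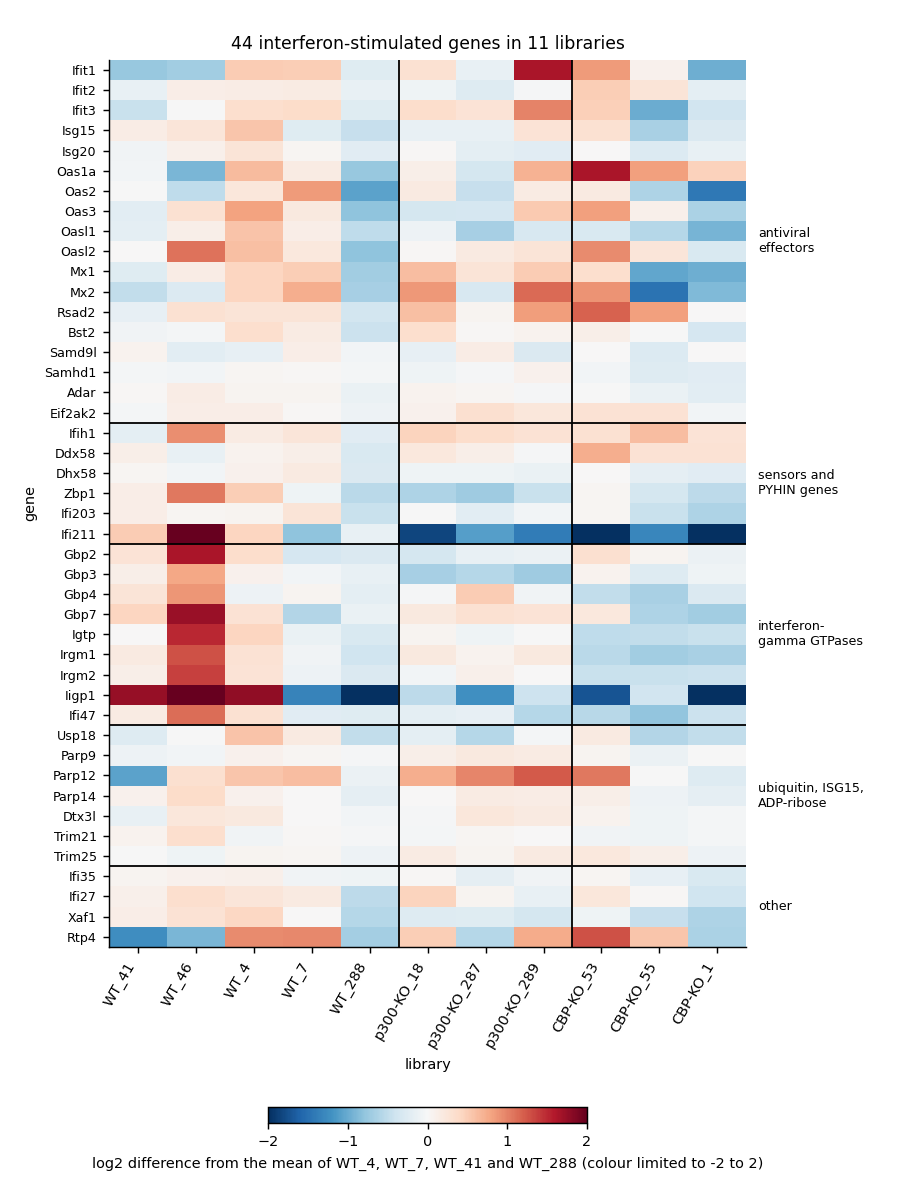
Log2 difference of each tested member (rows, by role) in each library (columns, by genotype) from the mean of WT_4, WT_7, WT_41 and WT_288, with colours limited to -2 and 2. The block of GTPases is red in WT_46 and mostly blue in the CBP-KO libraries (medians -0.43, -0.47 and -0.56 without Iigp1). Gbp2, Gbp3 and Gbp7 are positive in CBP-KO_53, and Gbp2 is also positive in CBP-KO_55. The antiviral effectors vary from library to library inside each genotype.

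The 9 interferon-gamma GTPases were all higher in WT_46 than in any other WT library. Iigp1 reached the mean of 10 only through WT_46, so it is left out of the other counts and medians of this paragraph. These cover members that pass without that library. Later counts out of 44 members or 9 GTPases include Iigp1. In WT_46 the level was at least 1.5 times the highest of the other 4 WT libraries in 8 of 8 GTPases, 2 of 6 sensors (Ifih1 and Ifi211) and 0 of 18 antiviral effectors. Over the members it was so in 10 of 43, against 3.83% of all genes that pass without WT_46. The median log2 difference of WT_46 from the mean of the other 4 was 1.31 for the 8 GTPases, 0.47 for the sensors and 0.06 for the effectors. It was -0.01 for all 16515 genes tested, which were filtered with WT_46 included. WT_46 had been singled out with earlier results known, so these values describe 1 library beside 4 and carry no test.

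Irgm1 (chr11:48861968-48871683), which controls where the other immunity-related GTPases go, read 938, 733, 867 and 583 in the other 4 WT libraries, 1863 in WT_46, 491, 527 and 476 in CBP-KO and 879, 810.2 and 876 in p300-KO. WT_46 was the highest library, all 3 CBP-KO libraries lay below every WT library, and p300-KO lay inside the WT range. Its mean was 997 ± 503 (SD, n = 5) in WT, 498 ± 26.3 (n = 3) in CBP-KO and 855 ± 39.0 (n = 3) in p300-KO. Irgm2 (chr11:58199618-58222782), a second regulatory member, read 1366, 1058, 1224 and 926 in the other 4 WT libraries, 2936 in WT_46, 842, 826 and 832 in CBP-KO and 1089.9, 1211 and 1139 in p300-KO. Igtp (chr11:58199556-58207591), the third regulatory member, read 1283, 865, 950.0 and 769 in the other 4 WT libraries, 2713 in WT_46, 695, 667 and 675 in CBP-KO and 989.5, 897 and 939 in p300-KO. Both showed the order seen for Irgm1, and the CBP-KO libraries of each lay close together. Igtp and Irgm2 share 162 exon bases on the same strand, and how reads there were assigned is not given in the sources used here.

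Ifi47 (chr11:49076587-49096974), an effector GTPase that loads onto vacuoles, read 2578, 1785, 2353 and 1763 in the other 4 WT libraries, 4543 in WT_46, 1552, 1420.4 and 1214 in CBP-KO and 1829.9, 1875 and 1402 in p300-KO. CBP-KO again lay below every WT library, and p300-KO overlapped the lower WT libraries. Gbp4 (chr5:105115767-105139586), a guanylate-binding protein, read 2313, 2579, 2983 and 2176 in the other 4 WT libraries, 4580.0 in WT_46, 2037, 1778 and 1583 in CBP-KO and 2463, 3533 and 2384 in p300-KO. Gbp2 (chr3:142620602-142638008) read 545, 336, 512 and 347 in the other 4 WT libraries, 1313 in WT_46, 393, 529 and 439 in CBP-KO and 332, 384 and 391.5 in p300-KO. For Gbp4 CBP-KO was below WT without overlap, whereas for Gbp2 both knockouts lay within the range of the WT libraries other than WT_46, apart from 332 in p300-KO_18.

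Gbp7 (chr3:142530342-142550149) was low in most libraries and read 72.4, 39.3, 80.6 and 53.9 in the other 4 WT libraries, 199.6 in WT_46, 36.2, 68.9 and 38.2 in CBP-KO and 68.4, 73.5 and 71.7 in p300-KO. Iigp1, whose product attacks the vacuole membrane of Toxoplasma and Chlamydia, read 32.5, 2.91, 31.9 and 1.17 in the other 4 WT libraries, 678 in WT_46, 0, 1.97 and 6.55 in CBP-KO and 5.82, 3.20 and 6.40 in p300-KO. Iigp1 was near 0 in 8 libraries, somewhat higher in WT_4 and WT_41 and high in WT_46 alone. Of the sensors, Ifi211 (chr1:173896345-173913046), a PYHIN gene, read 39.0, 16.0, 41.2 and 25.8 in the other 4 WT libraries, 376 in WT_46, 4.83, 0 and 10.9 in CBP-KO and 7.28, 12.8 and 10.2 in p300-KO. Ifi211 was highest in WT_46 and below every WT library in all 6 knockout libraries. Ifih1 (chr2:62595798-62646255), which encodes the double-stranded RNA sensor MDA5, read 168, 177, 130.2 and 128 in the other 4 WT libraries, 285 in WT_46, 179.8, 185 and 228 in CBP-KO and 203, 190.2 and 183 in p300-KO, with WT_46 highest and every other library between 128 and 228.

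Markers of macrophages and monocytes moved with the GTPases in WT_46. Of 19 such markers, 13 were highest of all 11 libraries in WT_46, and their sum was 10289 there against 4250.4 to 5648 in the other WT, 2377 to 3388 in CBP-KO and 3149 to 4175 in p300-KO. Lyz2, the lysozyme of myeloid cells, was 1014 in WT_46 and at most 227 in other WT libraries, and Mpeg1 was 6428 against at most 3646. Mpeg1 made up most of the sum in each WT library, while C1qa, C1qb and C1qc were at 49.9, 108 and 113 in WT_46. The sum thus rests largely on Mpeg1 and does not measure how many macrophages were present. The Fc receptor gene Fcgr1 was at 0 in WT_46. The markers' part in the GTPase values was not tested. Of the T cell list and of the plasmacytoid dendritic cell list, 3 of 12 markers each were highest of the 11 libraries in WT_46. Cd4, the coreceptor of helper T cells that some myeloid cells also carry, was 60.4 in WT_46 against at most 17.6 in other WT libraries, and Cd28 was 47.3 against at most 18.7. Cd3e, Siglech and Cd209d were at 0 in WT_46, but also in most of the other libraries. Themis and Bcl11b of the T cell list and Cox6a2 of the plasmacytoid dendritic cell list were at 0 in WT_46 too. Germinal center B cell markers summed to 715688 in WT_46 against 753100.0 to 801290.0 in the other WT libraries. T cell markers summed to 9319 in WT_46 and 9013 to 11216 in the other WT libraries, most of it Lck, and to 4633 to 6016 over the knockouts. Conventional dendritic cell markers summed to 5733 in WT_46, 4319.6 to 5244 in the other WT and 2635 to 3489 over the knockouts. Markers of NK cells (at most 89.3) and neutrophils (at most 11.6) were low in all libraries, and the plasmacytoid list, carried by Spib and Tcf4, which B cells express, spanned 86015 to 100137.

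**Figure D2:**
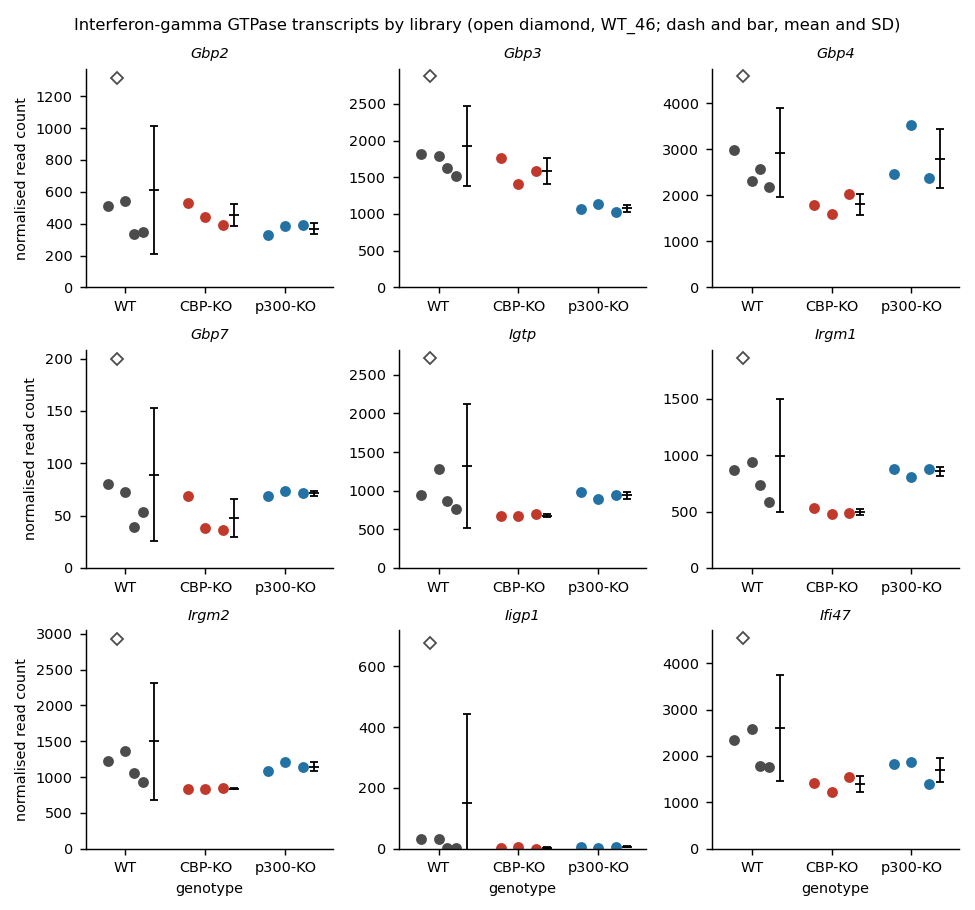
Normalised read count (vertical axes, from 0) of the 9 interferon-gamma GTPases by genotype, 1 point per library, with the open diamond for WT_46 and the dash and bar for the mean and SD of each genotype (for Iigp1 the WT bar is cut off at 0). WT_46 is the highest point in all 9 panels, and for Irgm1 the CBP-KO libraries lie at 476 to 527, below the p300-KO libraries at 810.2 to 879.

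The comparison of CBP-KO with WT asks which of these genes differ when Crebbp is deleted. With all 5 WT libraries, 2 of 44 members passed the test, Ifi211 lower and Ddx58 higher, against 8.36% of all genes tested (limma on log2(value + 1), Benjamini-Hochberg adjusted p below 0.05). The 8 GTPases other than Iigp1 had negative log2 differences, with a median of -0.72, and 0 of them passed. At an unadjusted p below 0.05 limma gave 5 of the 8 GTPases and 12 of the 44 members, against 22.6% of all genes tested. On the recovered reads edgeR called 1 of 44 members (Ddx58) and DESeq2 4 (Ddx58, Ifi211, Irgm1 and Ifi47). The medians were -0.24 for the sensors and -0.11 for the antiviral effectors, beside 0.01 for all genes tested.

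Without WT_46, 5 of 43 members passed, against 9.39% of all genes tested. All 5 were lower in CBP-KO, and 4 of them were GTPases. WT_46 had been set aside for its values in the GTPases, among others. The adjusted p-values of GTPases without WT_46 therefore follow a choice made on the same genes. Irgm1 fell by 0.62 ± 0.14 (SE) on the log2 scale (limma, adjusted p = 0.0154), Ifi47 fell by 0.59 ± 0.15 (adjusted p = 0.0285), Igtp fell by 0.48 ± 0.14 (adjusted p = 0.0492) and Irgm2 fell by 0.44 ± 0.11 (adjusted p = 0.032). With WT_46 the same genes gave larger differences and did not pass: -0.88 for Irgm1 (adjusted p = 0.0639), -0.81 for Ifi47 (adjusted p = 0.0643), -0.79 for Igtp (adjusted p = 0.144) and -0.72 for Irgm2 (adjusted p = 0.136). Without WT_288, Irgm1 and Ifi47 also passed, at -1.04 (adjusted p = 0.0235) and -0.93 (adjusted p = 0.0403), and Ifi47 passed without WT_7 at -0.93 (adjusted p = 0.0458). The median CV of the 8 GTPases over WT was 52.5% with WT_46 and 19.7% without it, and it was 11.6% over CBP-KO and 5.11% over p300-KO. Over the antiviral effectors it did not fall without WT_46 (26.1% with it and 30.0% without).

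Since WT_46 was the highest WT library for all 9 GTPases, leaving it out cannot change whether CBP-KO lay below every WT library. In 5 of 9 GTPases (Gbp4, Igtp, Irgm1, Irgm2 and Ifi47) every CBP-KO library was below every WT library. Over all members this held for 7 of 44, the others being Ifi211 and Samhd1, against 8.47% of all genes tested. The remaining GTPases did not share it: without WT_46, Gbp2 differed by 0.08 ± 0.18, Gbp3 by -0.09 ± 0.09 and Gbp7 by -0.37 ± 0.30, and none of these passed. The macrophage marker sums of all CBP-KO and all p300-KO libraries, given above, were also below those of every WT library. Most of each WT sum was Mpeg1, which was 2212 to 6428 in WT, 1103 to 1712 in CBP-KO and 1267 to 1614 in p300-KO. By gene, 14 of 14 tested macrophage markers had negative differences in CBP-KO and 6 of them passed, against 8.36% of all genes. In p300-KO 7 of 14 were negative and 7 positive, and 1 passed, Mpeg1, which was lower, against 11.9%. These counts were the same without WT_46, and their part in the GTPase differences was not tested. The guanylate-binding, PYHIN, Oas and Mx genes have close paralogs among which reads can be split.

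Ifi211 was lower in CBP-KO (log2 -3.58 ± 0.94 (SE), adjusted p = 0.0325, limma), and without WT_46 the value was -2.85 (adjusted p = 0.026). With CBP-KO_53 at 0, its size depends on the pseudocount, and the call was lost in 8 of 22 alternatives, among them without CBP-KO_1, CBP-KO_53, WT_4 or WT_41 (log2 from -2.56 to -3.83, adjusted p from 0.0565 to 0.164). Ddx58 (chr4:40203773-40239828), which encodes the RNA sensor RIG-I, read 834, 862, 868 and 642 in the other 4 WT libraries, 717 in WT_46, 970.2, 1321 and 969 in CBP-KO and 917, 859.8 and 782 in p300-KO. All 3 CBP-KO libraries lay above every WT library, with CBP-KO_53 farthest, at log2 0.46 ± 0.13 (SE), adjusted p = 0.0449 (limma). Without WT_46 Ddx58 gave 0.43 with adjusted p = 0.0674, and the call was lost in 14 of 23 alternatives, among them without CBP-KO_53, CBP-KO_55, p300-KO_18, p300-KO_287, p300-KO_289, WT_288, WT_4, WT_41, WT_46 or WT_7 (log2 from 0.32 to 0.54, adjusted p from 0.051 to 0.228).

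**Figure D3:**
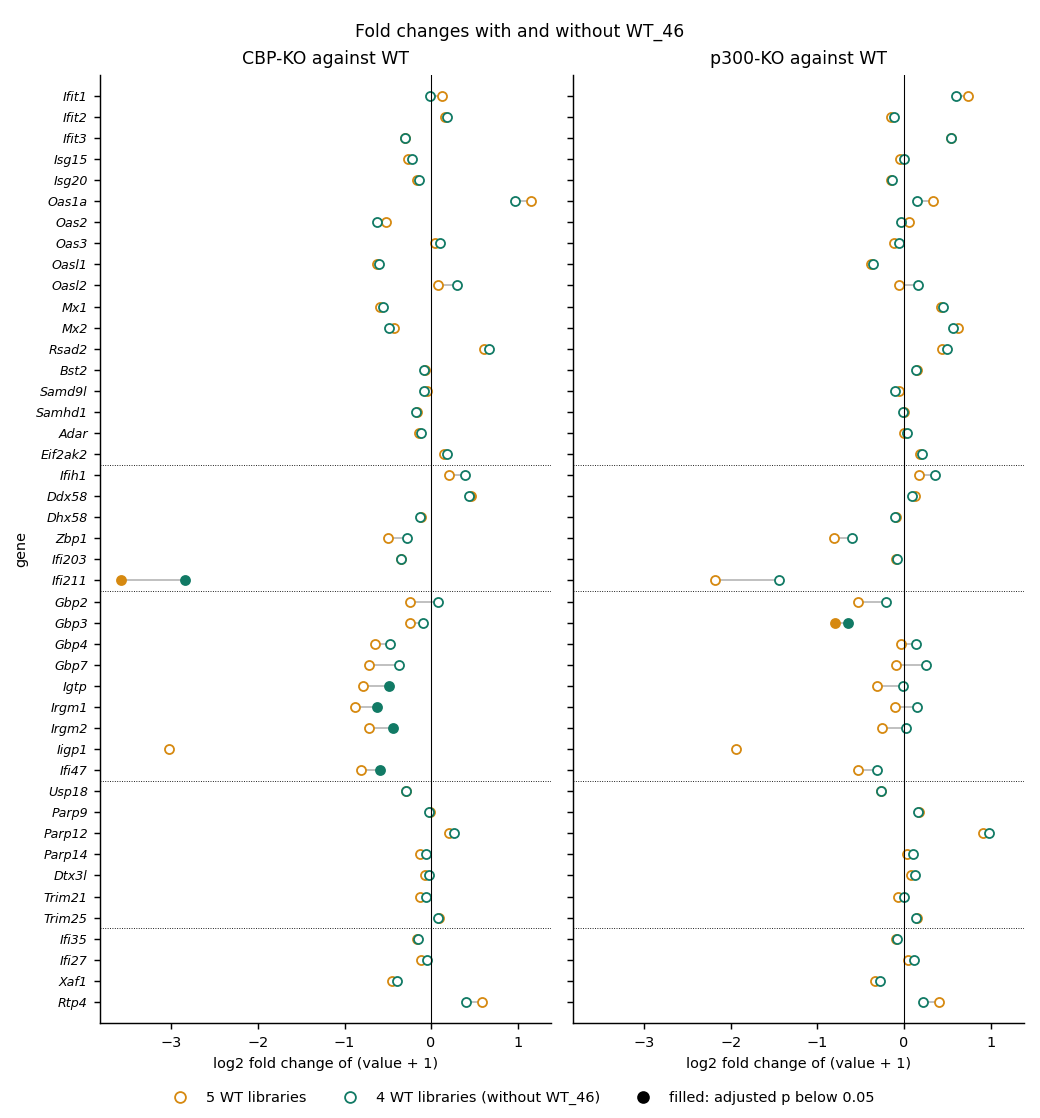
Log2 fold change of (value + 1) of each tested member (vertical axis, roles separated by dotted lines) in CBP-KO (left) and p300-KO (right) against WT, with 5 WT libraries (orange) and with 4, leaving out WT_46 (green), and with filled points for adjusted p below 0.05. Leaving out WT_46 moves the 8 GTPases still tested to the right on both sides, and 4 of them are filled on the left only then, while Gbp3 is filled on the right both times.

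In p300-KO against WT, Gbp3 was the 1 of 44 members that passed, against 11.9% of all genes tested. At an unadjusted p below 0.05 there were 5 of 44, against 25.7%. Gbp3 (chr3:142560026-142573209), a guanylate-binding protein, read 1787, 1624, 1815 and 1519.8 in the other 4 WT libraries, 2877 in WT_46, 1583, 1759 and 1408 in CBP-KO and 1067, 1131 and 1033 in p300-KO. Every p300-KO library lay below every WT and every CBP-KO library. Gbp3 fell by 0.80 ± 0.17 (SE) on the log2 scale (limma, adjusted p = 0.00793), and without WT_46 by 0.64 ± 0.09 (adjusted p = 0.000925), when it was again the 1 member called, of 43, against 12.4% of all genes tested. Without p300-KO_18, the library with both Xist and Y-linked transcripts, the value was -0.79 with adjusted p = 0.0329.

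The other GTPases did not pass in p300-KO. Without WT_46, Irgm1 differed from WT by 0.15 ± 0.14, Irgm2 by 0.02 ± 0.11 and Igtp by -0.01 ± 0.14 on the log2 scale, with 4 of 8 GTPases positive and 4 negative. Zbp1, a sensor of Z-form nucleic acid, came near the threshold: it was 923, 865 and 1043 in p300-KO, 2010.4, 1343, 1558 and 975 in the other 4 WT libraries and 2962 in WT_46 (log2 -0.81 ± 0.27, limma adjusted p = 0.073). The antiviral effectors had a median of 0.03, with 0 of 18 called and 0 at an unadjusted p below 0.05 by limma. Of the enzymes, Parp12, an ADP-ribosyltransferase, was above every WT library in all 3 p300-KO libraries (77.1, 91.9 and 110.0 against 21.5 to 71.2), at log2 0.92 ± 0.39 (SE), adjusted p = 0.163 (limma).

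The direct comparison of the knockouts tests whether the 2 deletions differ. With all 11 libraries 0 of 44 members passed in CBP-KO against p300-KO, against 9.42% of all genes tested. At an unadjusted p below 0.05 there were 8 of 44, against 25% of all genes tested, and edgeR called 0 and DESeq2 1. WT_46 enters this comparison only through the shared estimate of the spread and the filter on low values. Without it 4 of 43 passed, against 11.9% of all genes tested, and all 4 were GTPases. WT_46 had been set aside for its GTPase values, so these calls follow a choice made on the same genes. The same genes, Gbp3, Gbp4, Irgm1 and Irgm2, also passed with only the 2 knockout groups in the fit, where no WT library enters. Of 23 alternatives, Gbp3 passed in 5, Gbp4 and Irgm1 in 4 each and Irgm2 in 2.

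Without WT_46, Irgm1 was lower in CBP-KO than in p300-KO (log2 -0.78 ± 0.15, limma adjusted p = 0.00616), as were Gbp4 (-0.62 ± 0.15, adjusted p = 0.0232) and Irgm2 (-0.46 ± 0.12, adjusted p = 0.0317). Gbp3 went the other way, higher in CBP-KO by 0.55 ± 0.10 (adjusted p = 0.00385). With WT_46 in the fit the adjusted p-values of these genes were 0.126 for Irgm1, 0.122 for Gbp4, 0.389 for Irgm2 and 0.0809 for Gbp3, at the same differences. Both knockouts were compared with the same WT libraries in the results above, so those comparisons are not independent of each other.

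The antiviral effectors varied between mice of the same genotype, and 0 of 18 passed in any of the 3 comparisons with all libraries by limma, edgeR or DESeq2. At an unadjusted p below 0.05 limma gave 3 in CBP-KO against WT, 0 in p300-KO against WT and 3 in CBP-KO against p300-KO, beside 22.6%, 25.7% and 25% of all genes tested. Their median log2 difference from the mean of the 4 WT libraries was highest in WT_4 (0.34) and CBP-KO_53 (0.32), and lowest in WT_288 (-0.40) and CBP-KO_1 (-0.30). The lowest library of each genotype, WT_288, CBP-KO_1 and p300-KO_287 (-0.08), held Y-linked transcripts rather than Xist, as did WT_41 (-0.07). CBP-KO_55 (-0.19), like WT_4 and CBP-KO_53, held Xist. A link of the effectors with these transcripts was not tested. The median of the 8 GTPases was -0.47 in CBP-KO_53, close to the -0.43 of CBP-KO_1. Within CBP-KO the effectors of these libraries thus stood far apart while the GTPases did not.

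Samhd1 (chr2:157097533-157135265), the most abundant effector, read 56076, 55743, 53222 and 53313 in the other 4 WT libraries, 52670.3 in WT_46, 46738, 52457 and 45757 in CBP-KO and 51393, 53789.7 and 57975 in p300-KO. Every CBP-KO library lay below every WT library by a small margin (log2 -0.17 ± 0.06 (SE), adjusted p = 0.0969, limma). Adar (chr3:89715022-89753446) read 11646, 11655, 11316 and 10181 in the other 4 WT libraries, 12398 in WT_46, 9698, 11149 and 10245 in CBP-KO and 11780.3, 11436 and 11055 in p300-KO, and its groups overlapped. Oas1a, which makes the oligoadenylates that activate RNase L, was 354, 796 and 454 in CBP-KO against 399, 289.3, 247 and 152 in the other 4 WT libraries and 135 in WT_46. It gave log2 1.15 ± 0.36 (SE), adjusted p = 0.0725 (limma), and the CBP-KO libraries overlapped WT because of 399 in WT_4.

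Ifit1, an RNA cap-binding inhibitor of viral translation, ranged from 19.3 in CBP-KO_1 to 123 in p300-KO_289. Mx1, a dynamin-like GTPase that blocks influenza viruses, ranged from 41.5 in CBP-KO_55 to 132 in p300-KO_18. Isg15, a ubiquitin-like modifier, ranged from 105 in CBP-KO_55 to 245 in WT_4. For each of these 3 the genotypes overlapped, and in CBP-KO the CBP-KO_53 library was the highest. The ranges of Oas2 (36.2 to 180.3), Rsad2 (12.9 to 39.3) and Mx2 (10.9 to 71.7) were also wide, whereas Eif2ak2, the kinase PKR, kept to 3286 to 4395. The median CV of the 18 effectors was 26.1% over WT, 36.8% over CBP-KO and 16.8% over p300-KO.

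**Figure D4:**
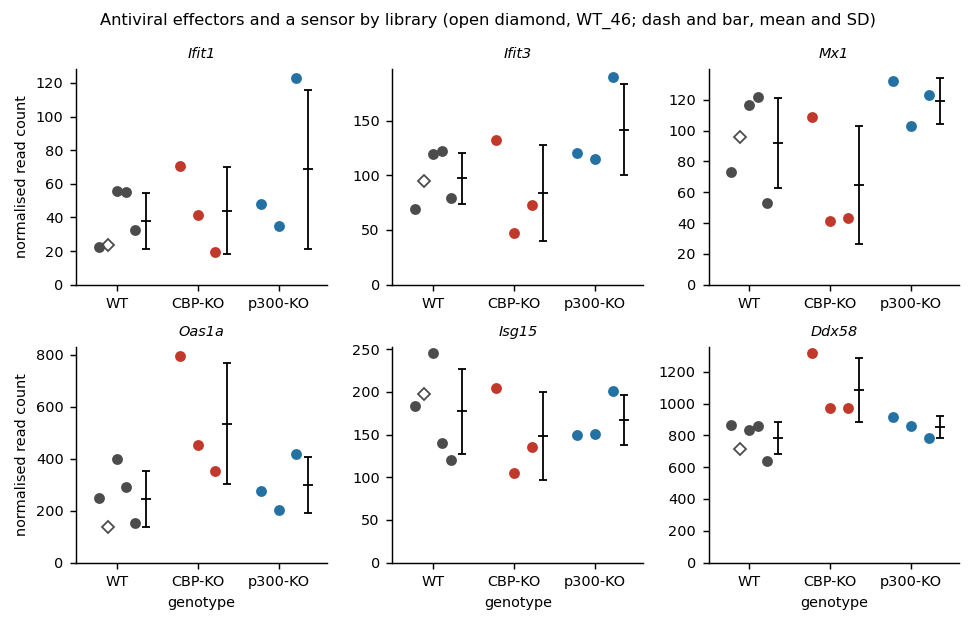
Normalised read count (vertical axes, from 0) of 5 antiviral effectors and of the sensor Ddx58 by genotype, 1 point per library, with the open diamond for WT_46 and the dash and bar for the mean and SD. WT_46 is not the highest WT library in any of the 6 panels, and for Ddx58 the CBP-KO libraries lie at 969 to 1321, above the WT range of 642 to 868. Of all 18 effectors WT_46 is the highest WT library in 4, which are not drawn here. One of these is Oasl2, at 328 in WT_46 against 87.2 to 234 in the other WT libraries.

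The other 4 sensors did not pass in any comparison by limma, with WT_46 or without it. Dhx58, which encodes LGP2, a relative of RIG-I and MDA5, read 2447, 2608, 2383 and 1888 in the other 4 WT libraries, 2235 in WT_46, 1984, 2339 and 2042 in CBP-KO and 2189, 2186 and 2101 in p300-KO. Ifi203, a second PYHIN gene, read 1647, 1880.0, 1729 and 1155 in the other 4 WT libraries, 1628 in WT_46, 1023, 1613 and 1164 in CBP-KO and 1575, 1366 and 1524 in p300-KO. Genotypes overlapped for both, and WT_46 lay within the range of the other WT libraries.

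The 7 enzymes of ubiquitin, ISG15 and ADP-ribose gave 0 calls by limma, edgeR and DESeq2 in all 3 comparisons, with 0, 2 and 1 at an unadjusted p below 0.05 in CBP-KO against WT, p300-KO against WT and CBP-KO against p300-KO. Trim25 (chr11:88999376-89020293), a ubiquitin ligase that acts on RIG-I signalling, read 9277, 9139, 8904 and 8332 in the other 4 WT libraries, 8431 in WT_46, 8277, 10338 and 9634 in CBP-KO and 10009, 9254 and 10057 in p300-KO. Parp14 (chr16:35832874-35871544), an ADP-ribosyltransferase, read 9098, 8593, 9108 and 7586 in the other 4 WT libraries, 11043 in WT_46, 7594, 9284 and 7982 in CBP-KO and 8604, 9628 and 9497 in p300-KO. Both overlapped between genotypes, and Parp14 was highest in WT_46. Parp9 and its partner Dtx3l share 458 exon bases on opposite strands, where these libraries, which do not keep strand, cannot assign reads. Parp9 was 5661, 6008 and 5870.5 in p300-KO, above every WT library (4864 to 5578), without passing the test (log2 0.17 ± 0.06 (SE), adjusted p = 0.0861, limma).

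Of the other interferon-induced genes, 4 of 5 were tested and 0 passed by limma, edgeR or DESeq2 in any comparison. At an unadjusted p below 0.05 limma gave 1, in CBP-KO against WT. Ifi35 read 3035, 2712, 2939 and 2665 in the other 4 WT libraries, 3012 in WT_46, 2292, 2896 and 2524 in CBP-KO and 2873, 2498 and 2684 in p300-KO. Ifi27 read 1463, 1400.2, 1335 and 865 in the other 4 WT libraries, 1564 in WT_46, 939, 1453 and 1262 in CBP-KO and 1685, 1294 and 1114 in p300-KO. The genotypes overlapped for both. Rtp4, a chaperone-like protein with antiviral activity, ranged from 18.7 in WT_41 to 112 in CBP-KO_53.

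A list of 47 other genes of the interferon pathway was examined beside the members, and 35 of them were tested. The 12 interferon genes themselves were all below the filter, and most were at 0 in every library: Ifng was listed in CBP-KO_53 alone, at 1.97, and Ifnk was at most 12.8. In CBP-KO 9 of the 35 passed, all lower than in WT, against 8.36% of all genes tested. In p300-KO 3 were higher and 3 lower than in WT, against 11.9% of all genes tested. Between the knockouts 1 was higher and 7 lower in CBP-KO, against 9.42%. The list was chosen with earlier results of these data known.

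Of the 6 receptor chains, Ifnlr1 and Ifngr1 fell in both knockouts. Ifnlr1, the specific chain of the type III interferon receptor, read 861, 916, 1108 and 768 in the other 4 WT libraries, 1749 in WT_46, 340.3, 224 and 385 in CBP-KO and 381, 527 and 326 in p300-KO. All 6 knockout libraries lay below every WT library, and WT_46 was the highest. Ifnlr1 fell by 1.74 ± 0.26 in CBP-KO (limma, adjusted p = 0.0016) and by 1.36 ± 0.26 in p300-KO (adjusted p = 0.00504). Ifngr1, the ligand-binding chain of the interferon-gamma receptor, read 5829.7, 5899, 5212 and 5589 in the other 4 WT libraries, 4729.7 in WT_46, 4295, 3998 and 3909 in CBP-KO and 4528, 4475 and 4257 in p300-KO. Ifngr1 was lowest of the WT in WT_46, where the GTPases were highest, and it fell by 0.42 in CBP-KO (adjusted p = 0.00403) and by 0.30 in p300-KO (adjusted p = 0.0187).

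The other receptor chains gave other patterns. Ifnar1 ranged from 2823 to 3609.5 and passed in no comparison. Ifnar2 was 607, 872 and 969 in CBP-KO and 1308, 1269 and 1391 in p300-KO, without overlap (log2 -0.72, limma adjusted p = 0.00772). Ifngr2, the second chain of the interferon-gamma receptor, passed in no comparison (log2 -0.10 in CBP-KO and 0.08 in p300-KO against WT). Il10rb, the chain that the type III receptor shares with that of interleukin-10, was 746, 852 and 778 in CBP-KO and 1257, 1291 and 1071 in p300-KO (log2 -0.60, adjusted p = 0.00254), and was higher in p300-KO than in WT (log2 0.37, adjusted p = 0.016).

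Among the kinases and transcription factor subunits, Jak1 was 34782, 31717 and 29413 in CBP-KO against 35125 to 39624 in WT (log2 -0.27, limma adjusted p = 0.021). Stat2 (6826 to 9948 over the libraries) and Irf9 (2467 to 5086) passed in no comparison, and in CBP-KO against WT gave log2 0.04 and -0.23. Tyk2 was 7923, 8395 and 7831 in p300-KO against 6762 to 7534 in WT (log2 0.18, adjusted p = 0.0483).

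Among the regulatory factors, Irf8, which is abundant in germinal center B cells, was 40299, 38633 and 38534 in CBP-KO against 44991 to 54392 in WT (log2 -0.32, limma adjusted p = 0.00748). Irf5 also fell in CBP-KO, to 13347, 13367 and 11365 from 13769 to 16136 (log2 -0.25, adjusted p = 0.0334). Irf2, a repressor of interferon responses, fell in p300-KO, to 7410.5, 8105 and 7758 from 9027 to 9808 (log2 -0.27, adjusted p = 0.00834), and was higher in CBP-KO than in p300-KO by 0.23 (adjusted p = 0.0378). Irf7, the amplifier of type I interferon production, passed in no comparison (log2 -0.15 in CBP-KO and -0.06 in p300-KO against WT). Irf1, which is induced by interferon-gamma, was 12926 in WT_46 and 5732, 2796, 5465 and 3023 in the other 4 WT libraries, and passed in no comparison. Irf1 and the inhibitors Socs1 and Socs3 are named because their values in WT_46 had been seen.

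Of the 12 sensing adaptors and inducers 4 fell in CBP-KO, against 8.36% of all genes called in either direction. Unc93b1, which carries endosomal Toll-like receptors, was 23836, 22764 and 20985 in CBP-KO against 27485 to 30324 in WT (log2 -0.36, limma adjusted p = 0.00222). Ticam1, the adaptor TRIF, was 1284, 1414 and 1263 against 1707 to 2013 (log2 -0.46, adjusted p = 0.00184). Tlr7, a receptor for single-stranded RNA, was 113, 197 and 78.6 against 207 to 391 (log2 -1.21, adjusted p = 0.0151). None of these 3 overlapped with WT. Traf3 was 7764, 7548 and 6890.1 against 8270.1 to 8657 (log2 -0.21, adjusted p = 0.0312).

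Unc93b1 (log2 -0.43, limma adjusted p = 0.00128), Ticam1 (-0.28, adjusted p = 0.0401) and Tlr7 (-1.34, adjusted p = 0.0155) were also lower in CBP-KO than in p300-KO. Ikbke, a kinase that activates IRF3 and IRF7, was 1765, 2184 and 1387 in p300-KO against 989 to 1266 in WT (log2 0.67, adjusted p = 0.00881). It was 935 to 1186 in CBP-KO, lower than in p300-KO (log2 -0.73 for CBP-KO against p300-KO, adjusted p = 0.0136). Tmem173, which encodes STING, was 3654, 3566 and 3198 in CBP-KO and 4598, 5016 and 4892 in p300-KO (log2 -0.48, adjusted p = 0.01). The inhibitors passed in no comparison with all libraries, though Socs1 (2799 against at most 1479) and Socs3 (1224 against at most 455) were highest of the WT in WT_46.

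Several calls of pathway genes ended when 1 library was left out. In CBP-KO against WT these were Jak1 without CBP-KO_53 or CBP-KO_55 (log2 from -0.21 to -0.26, adjusted p from 0.0855 to 0.119), Irf5 without CBP-KO_53, CBP-KO_55, WT_288, WT_4, WT_41 or WT_7 (log2 from -0.17 to -0.29, adjusted p from 0.0546 to 0.172), Traf3 without CBP-KO_53, CBP-KO_55, WT_4, WT_41 or WT_7 (log2 from -0.16 to -0.22, adjusted p from 0.0592 to 0.163) and Tlr7 without CBP-KO_55 (log2 -0.90, adjusted p = 0.0825). In p300-KO against WT they were Ifngr1 without p300-KO_289 (log2 -0.27, adjusted p = 0.0824), Il10rb without p300-KO_18 or p300-KO_287 (log2 from 0.32 to 0.34, adjusted p from 0.0711 to 0.0742) and Tyk2 without CBP-KO_53, p300-KO_18, p300-KO_287, p300-KO_289, WT_288, WT_4, WT_46 or WT_7 (log2 from 0.15 to 0.20, adjusted p from 0.0663 to 0.168). Between the knockouts they were Irf2 without CBP-KO_1, CBP-KO_53, p300-KO_18, p300-KO_289, WT_41 or WT_7 (log2 from 0.18 to 0.23, adjusted p from 0.05 to 0.127), Tmem173 without CBP-KO_55 (log2 -0.42, adjusted p = 0.0512), Ikbke without CBP-KO_55 or p300-KO_287 (log2 from -0.57 to -0.64, adjusted p from 0.0524 to 0.0649), Tlr7 without CBP-KO_55 or p300-KO_18 (log2 from -1.03 to -1.24, adjusted p from 0.0639 to 0.0654) and Ticam1 without CBP-KO_1, CBP-KO_55, p300-KO_18, p300-KO_287, p300-KO_289, WT_288, WT_41 or WT_7 (log2 from -0.25 to -0.28, adjusted p from 0.0517 to 0.14). Calls of Ifngr1, Ifnlr1, Irf8, Ticam1 and Unc93b1 in CBP-KO, of Ifnlr1, Irf2 and Ikbke in p300-KO, and of Ifnar2, Il10rb and Unc93b1 between the knockouts were kept in all 23 alternatives. Without WT_46 Tlr9 (log2 -0.35, limma adjusted p = 0.0314) and Ptpn6 (-0.23, adjusted p = 0.0142) passed as well in CBP-KO, and Tmem173 in p300-KO (0.32, adjusted p = 0.0107).

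**Figure D5:**
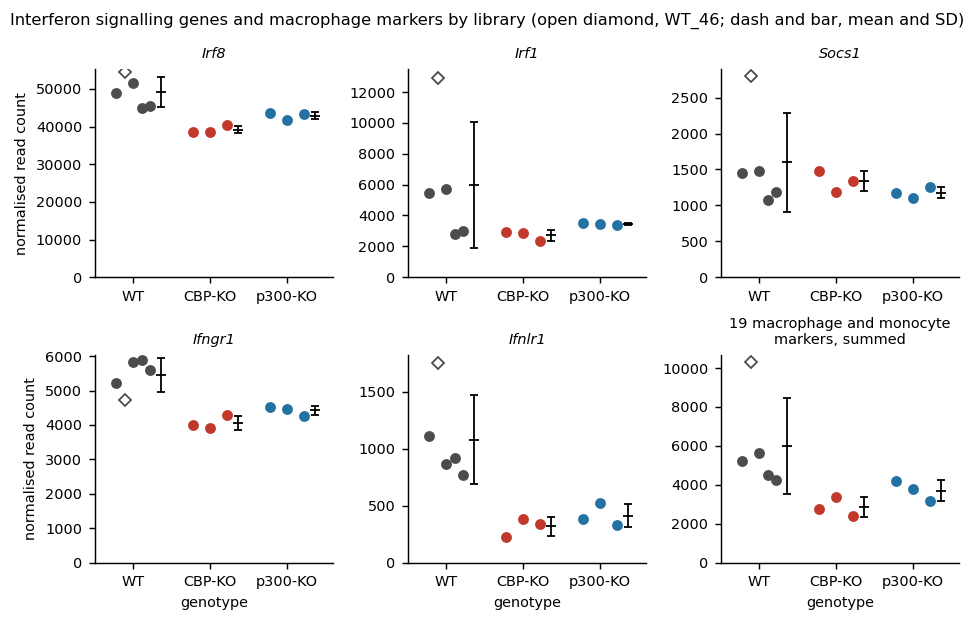
Normalised read count (vertical axes, from 0) of 5 interferon signalling genes, and the summed count of 19 macrophage and monocyte markers, by genotype, 1 point per library, with the open diamond for WT_46 and the dash and bar for the mean and SD. WT_46 is highest for Irf1, Socs1, Ifnlr1 and the marker sum (10289) and lowest of the WT for Ifngr1 (4729.7), the CBP-KO libraries lie below every WT library for Irf8 (38534 to 40299), and both knockouts lie below WT for Ifngr1 and Ifnlr1. Most of the marker sum in each WT library is Mpeg1.

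The mean of the members' standardised log2 levels was highest in WT_46 and lowest in CBP-KO_1. Of all tested genes outside the set, the one most like it over the 11 libraries was Irf7 (Pearson r = 0.943), followed by Gm6545 (r = 0.904), Gm8979 (r = 0.886), Sdc3 (r = 0.869) and Gm20568 (r = 0.856). Gm14303, Tnfsf10, Ifi213, Gm4070 and Gm14335 completed the first 10, with r down to 0.831. Irf7 was 2492, 2540.0, 2160.4 and 1759 in the other 4 WT libraries, 2587 in WT_46, 1869, 2449 and 1922 in CBP-KO and 2365, 2029 and 2209.7 in p300-KO. The genes share libraries and depth, so r is given as a description.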

How the data were processed

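RNA of germinal center B cells sorted from mouse spleen (11 libraries, 1 mouse each by the labels) was extracted with NucleoSpin RNA XS and sequenced from TruSeq RNA v2 libraries, per the labels' protocols; this kit does not keep strand. The submitters' processing notes name CASAVA 1.8, HISAT2, featureCounts, DESeq2 and mm10, with the settings not given in the sources used here. The deposited values are a signal: gene counts that the authors normalised with DESeq2 size factors, as the table's own name and its values show. Every value was a whole multiple of what 1 read is worth in its library (100% of values within 1e-06), so reads were recovered, from 53550726 to 132861266 per library, with 1 read worth 0.585 to 1.45. Depth limits precision for members with few reads.

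The main test was limma 3.58.1 (R 4.3.3) with a mean-variance trend on log2(value + 1), in 1 fit of the 11 libraries without covariates, over 16515 of 48593 genes with a mean of at least 10, with Benjamini-Hochberg adjustment over all of them and a threshold of 0.05. Of all genes 22043 were at 0 in every library. All 3 comparisons of the genotypes were made. On the recovered reads in CBP-KO against WT, edgeR 4.0.16 called 1323 genes and DESeq2 1.42.0 called 2041, beside 1380 by limma; adjusted p-values that DESeq2 gave as missing stayed missing. The scripts were tested on simulated data. Tables and figures used Python 3.11.15, pandas 2.3.3, numpy 2.4.6 and matplotlib 3.10.9. No column of the table was left unused (0).

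The members, the pathway list and the marker lists were chosen with earlier results of these data known. All members may be named, with values in every library for those called, those with WT_46 at least 1.5 times the highest other WT library, and the 2 with the highest mean in each role; of the pathway list, the genes called and Stat2, Irf9, Irf7, Ifnar1 and Ifngr1; and the 10 genes most correlated with the members' mean standardised level. Positions are from the GENCODE M21 annotation of GRCm38, and promoter sequences from RefSeq on GRCm38.p6, with 33 of 45 members matched by symbol. One gene of the pathway list is not reported here. Shares of all genes that bear on WT_46 cover the 16443 genes whose mean is at least 10 without it. The median difference of WT_46 over all genes covers the 16515 tested. The alternatives were other pseudocounts, filters, scalings, weights, the 2 groups alone, count tests, and leaving out each library, or WT_46 and p300-KO_18 together. A covariate for Xist or Y-linked transcripts was added after seeing the data.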

Additional observations from a re-analysis of the deposited data

Results flagged for a closer look

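Among the 5 WT libraries the extreme value of a gene was examined by its gap to the nearest other library divided by the whole range, against Dixon's 95% critical value of 0.71. Chance gives such a gap in about 1 in 20 groups, and over 16443 genes with a mean of at least 10 without WT_46 it was found in 6.55%, or 2.46% with WT_46 as the highest library. WT_46 had been singled out with earlier results known, so the values are a description. The gap was passed in 8 of 44 members, with WT_46 the highest library each time, and Iigp1 among them was tested only because of WT_46: Iigp1 (0.954), Ifi211 (0.93), Gbp2 (0.786), Gbp3 (0.783), Irgm2 (0.781), Gbp7 (0.742), Igtp (0.736) and Irgm1 (0.722). Of the 9 interferon-gamma GTPases, Gbp4 and Ifi47 did not reach it, although WT_46 was highest there as well, and of the 18 antiviral effectors 0 did.

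Of the 35 pathway genes tested, 7 passed. WT_46 was the highest library for Tbk1 (0.922), a kinase of the interferon induction pathway, for the inhibitors Socs3 (0.769) and Socs1 (0.768), and for Irf1 (0.71). WT_46 was the lowest for the kinase Jak1 (0.802). WT_288 was the lowest for Irf3 (0.773) and for Traf3 (0.752).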

How the results depend on the processing

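Over 23 alternatives no gene called with all libraries or without WT_46 turned its direction in that comparison, while the counts of members called, which are small, moved. In CBP-KO against WT (2 members) the count was 1 with a pseudocount of 5 (Ddx58), with no filter (Ifi211), with a mean of at least 50 (Ddx58), with edgeR (Ddx58) and with the added covariate for Xist or Y-linked transcripts (Oasl1), 0 with only these 2 groups in the fit (10 at an unadjusted p below 0.05), 4 with DESeq2 and with WT_46 and p300-KO_18 both left out, and 7 with array weights. Leaving out 1 library gave 0 to 5, with 0 without CBP-KO_53 or WT_41, 4 without WT_288 and 5 without WT_46. In p300-KO against WT (1 member, Gbp3) it was 2 with quantile normalization, 3 with DESeq2, and 1 to 2 on leaving out 1 library (2 without WT_288, with Zbp1). In CBP-KO against p300-KO (0 members) it was 1 with quantile normalization (Parp9) and with DESeq2 (Gbp3), 4 with array weights, 5 with only these 2 groups, 3 with WT_46 and p300-KO_18 both left out, and 0 to 4 on leaving out 1 library (4 without WT_46, 1 without CBP-KO_53). The cause was not tested. Over all genes, CBP-KO against WT gave 1380 calls, which became 658 when CBP-KO_53 was left out, 647 when CBP-KO_55 was, and 2730 under array weights. CBP-KO against p300-KO gave 1556, and 863 and 747 without these libraries, 849 without p300-KO_18, 906 without p300-KO_287, 2808 with array weights and 2349 with DESeq2. For p300-KO against WT there were 1970, and 1260, 1248 and 1169 without p300-KO_18, p300-KO_287 and p300-KO_289. No paired analysis was possible because no mouse number recurs in another genotype. Members at few reads, such as Rsad2, Mx2, Iigp1 and Ifi211, are measured with less precision than the others.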
